A study of Arabidopsis thaliana with 35 samples.

Results

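The loss of SLN was examined in mature pollen of Arabidopsis thaliana (ecotype Col0) by setting 5 sln libraries against 5 wild-type libraries, which are 10 of the 35 poly(A) RNA libraries of the study. The other genotypes compared here were mbd5 mbd6 and acd15.5 acd21.4 sln (called acd15 acd21 sln from here on), with 5 libraries each. Libraries of the acd15, acd21 and acd15 acd21 genotypes were not compared. They did enter the statistical fit, its low-count filter and its estimate of the spread. The libraries were taken by their labelled genotype, and replicates 1 and 2 of each genotype belonged to batch 1 and replicates 3 to 5 to batch 2. No treatment is labelled, the alleles of sln and mbd5 mbd6 are not named in the labels, and it is not stated that replicates are separate plants or sowings, so that the p-values here reflect only the scatter among these libraries, which may be partly technical.

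Cytosines of CG sites carry methyl groups in transposable elements and in some genes, and proteins with a methyl-CpG-binding domain (MBD) read this mark. MBD5 and MBD6 are such readers that keep methylated loci silent, SLN (SILENZIO) is a J-domain protein, a class of HSP70 cochaperones, that acts with them, and ACD15 and ACD21 are alpha-crystallin domain proteins of the same complex. Mature pollen holds a large vegetative cell, whose nucleus has loosened heterochromatin, and the sperm cells inside it. The comparison asks which transcripts of pollen change when SLN is lost.

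Levels are given as CPM, counts scaled to library size and by edgeR's TMM factors, which compare a feature between libraries and are not divided by transcript length. A feature was called higher or lower at an adjusted p under 0.05 in edgeR's quasi-likelihood test (Benjamini-Hochberg over all 12106 features tested), and adjusted p-values of single features come from that test with n = 5 libraries per genotype. Changes with a standard error (SE) are log2 of sln over wild-type unless another genotype is named. Wild-type libraries held 12421593 to 15068798 counts and sln libraries 13167806 to 22208090. Replicate 5 of sln was the deepest, with the next deepest of the 10 at 15272287, and it also stood apart after scaling. Its summed level of 44 genes of the vegetative cell and pollen tube was 38218 CPM against 48184 to 58644 CPM in the other 9 libraries. Its sum over all tested features was lower too, at 798129 CPM against 932786 to 1076490 CPM. That sum is set by the library's TMM factor alone, so it does not show that features in general were lower. Results that rest on sln replicate 5 are therefore given without it too. The first principal component of the 10 libraries (39.6% of the variance) had every sln library on one side and every wild-type library on the other. Defining markers of pollen were present, with all 17 sperm cell genes and all 44 vegetative cell and pollen tube genes in the tables abundant enough to test, whereas none of 11 genes of the tapetum (the anther layer that feeds the developing grains) was.

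SLN itself (AT5G37380, chromosome 5, 14816734 to 14819346 in TAIR10.1) was read at 4.72, 4.53, 4.86, 4.23 and 4.23 CPM in wild-type replicates 1 to 5 and 0.328, 0, 0.509, 0.135 and 0.324 CPM in sln replicates 1 to 5. Every sln library lay below every wild-type library, and the log2 change was -4.0 ± 0.32 (SE, adjusted p = 5.97e-19). The remaining counts, 0 to 9 per sln library, were not traced to a part of the transcript.

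In sln pollen 569 features rose, 4.7% of those tested, and 195 fell, 1.61%. Large changes were nearly all upward: 277 features rose by at least 2-fold (2.29% of those tested), and 26 fell that far (0.215%), or 43 without wild-type replicate 5. The median log2 change over all tested features was 0.01. Of the 569, 234 stood under 1 CPM on average in wild-type, and 22 had 0 counts in all 5 wild-type libraries. These counts are a description, since a feature near 0 in wild-type entered the test only through a genotype in which it was high and had little room to be called lower. Levels were measured in whole pollen, where more RNA per cell and more cells of a type cannot be told apart.

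**Figure D1:**
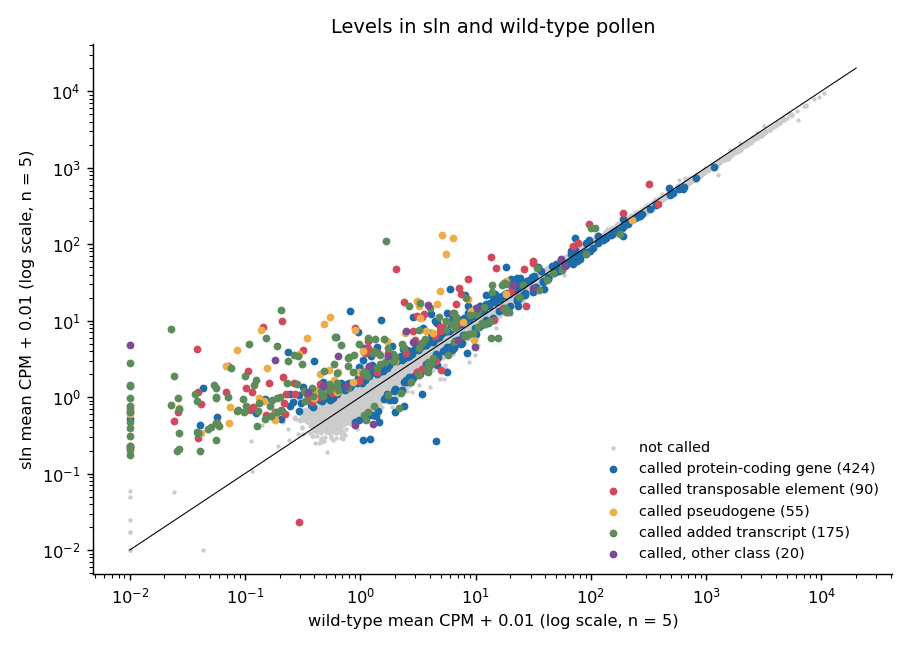
Mean level in sln against mean level in wild-type for each tested feature (CPM + 0.01, both axes logarithmic, n = 5 libraries each), with called features coloured by class and the line of equal levels drawn. More of the coloured points lie above the line than below it, and SLN and AT1TE62360 are among those far below it.

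The classes differed in the share that rose. Transposable elements rose in 80 of 258 tested (31.0%) and pseudogenes in 53 of 153 (34.6%), while protein-coding genes rose in 283 of 9849 (2.87%). Pseudogenes here are the genes that RefSeq types as such. Whether they include genes of transposable elements was not checked, so the 2 classes may not be separate in kind. Transcripts that the authors added to the annotation lay between, with 40 of 318 coding (12.6%) and 99 of 1219 noncoding (8.12%) higher. Of protein-coding genes 141 fell (1.43%), of transposable elements 10 (3.88%) and of pseudogenes 2. The median log2 rise was 1.75 for the called transposable elements, 2.05 for the pseudogenes and 0.53 for the protein-coding genes, which describes the called features only, since one at a low level was called only with a large change. Only features abundant enough in some genotype were tested, so that a silent element could enter through a mutant in which it was high, and these shares are not shares of all 23488 elements in the tables.

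**Figure D2:**
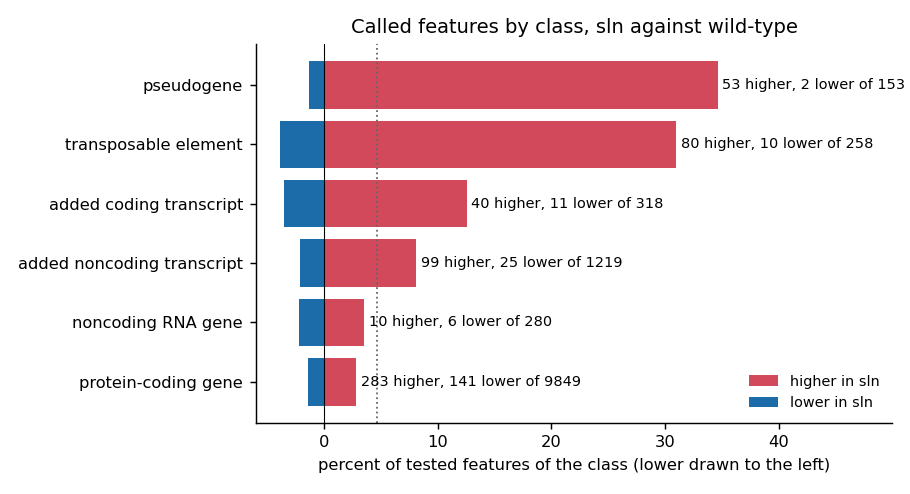
Percentage of the tested features of each class called higher (right) or lower (left) in sln than in wild-type, with counts beside the bars and the 4.7% of all tested features drawn as a dotted line. Pseudogenes (34.6%) and transposable elements (31.0%) extend farthest to the right.

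The calls were also counted without sln replicate 5. In that fit 400 features were higher and 90 lower, and 75 of the 80 transposable elements, 47 of the 53 pseudogenes and 85 of the 99 added noncoding transcripts remained called higher. Of the 283 protein-coding genes 132 remained (46.6%), and of the 195 features that had fallen 83 did. Among the 277 features that rose by at least 2-fold, 247 remained called. With only the sln and wild-type libraries in the fit, 415 features were higher and 154 lower. There 391 of the 569, 63 of the 80 transposable elements and 199 of the 277 remained called higher. A feature that the filter of this smaller fit removed was counted as not called. Every sln library lay above every wild-type library in 72 of the 80 transposable elements, 41 of the 53 pseudogenes and 137 of the 283 protein-coding genes. The same held for 374 of all 569 features called higher, a call that itself favours groups that do not overlap, and for 3.89% of all tested features.

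Transposable elements took 0.27, 0.282, 0.297, 0.312 and 0.299% of the counts in wild-type replicates 1 to 5 and 0.372, 0.368, 0.408, 0.417 and 0.452% in sln. The groups did not overlap, and the mean was 0.403 ± 0.0347% in sln against 0.292 ± 0.0162% in wild-type (SD, n = 5; exact two-sided permutation p = 0.00794, the smallest that 5 against 5 libraries allow, adjusted p = 0.0143 over 9 feature classes). The permutation moved labels across both batches and did not keep batch fixed. Within batch 1 the means were 0.37% in sln and 0.276% in wild-type, and within batch 2 0.426% and 0.303%. These are shares of unscaled counts, which also rise when abundant transcripts fall. In summed CPM the 258 tested elements were at 2855 to 2978 in wild-type and 3546 to 3840 in sln. On that scale replicate 5 was the lowest sln library, whereas its share was the highest. The share in pseudogenes moved the same way, from 0.394 ± 0.0142% to 0.459 ± 0.028% (SD, n = 5; same exact permutation p). The share in added noncoding transcripts was lower in sln, at 1.51 ± 0.0368% against 1.64 ± 0.0472% (SD, n = 5; same exact permutation p), although 99 single members rose and 25 fell.

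AT4G06688, FWA and KTF1 were among the protein-coding genes with the largest rises, and the DNA just before each annotated start is shown here so that the CG sites, the letters that MBD proteins read when methylated, can be seen. Each stretch is the 250 bases before the gene's annotated start in RefSeq's TAIR10.1, read 5′ to 3′ on the gene's strand, with CG dinucleotides in capitals. AT4G11440 and SYP122 are added because sln and mbd5 mbd6 differed there in opposite directions.
KTF1 (chr5:1195719-1195968, plus strand): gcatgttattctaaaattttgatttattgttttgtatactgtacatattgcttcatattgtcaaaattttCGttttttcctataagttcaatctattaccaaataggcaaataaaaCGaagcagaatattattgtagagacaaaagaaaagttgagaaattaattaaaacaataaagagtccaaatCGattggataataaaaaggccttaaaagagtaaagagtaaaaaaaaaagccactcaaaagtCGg
FWA (chr4:13038110-13038359, plus strand): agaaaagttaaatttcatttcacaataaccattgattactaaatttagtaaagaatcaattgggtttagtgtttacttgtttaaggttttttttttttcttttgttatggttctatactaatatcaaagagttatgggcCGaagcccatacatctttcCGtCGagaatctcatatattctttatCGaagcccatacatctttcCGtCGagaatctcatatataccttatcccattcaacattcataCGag
AT4G06688 (chr4:3920443-3920692, plus strand): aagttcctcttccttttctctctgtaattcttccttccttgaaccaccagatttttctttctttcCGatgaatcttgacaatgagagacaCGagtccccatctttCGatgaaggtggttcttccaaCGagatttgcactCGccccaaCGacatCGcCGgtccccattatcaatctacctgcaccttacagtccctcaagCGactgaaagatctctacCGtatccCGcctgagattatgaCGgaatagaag
AT4G11440 (chr4:6955284-6955533, plus strand): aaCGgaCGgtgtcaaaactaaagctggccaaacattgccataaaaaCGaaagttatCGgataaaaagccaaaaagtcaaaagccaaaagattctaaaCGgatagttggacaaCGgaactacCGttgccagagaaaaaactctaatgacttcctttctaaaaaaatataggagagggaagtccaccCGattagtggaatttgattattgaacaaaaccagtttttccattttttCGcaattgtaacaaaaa
SYP122 (chr3:19427231-19427480, minus strand): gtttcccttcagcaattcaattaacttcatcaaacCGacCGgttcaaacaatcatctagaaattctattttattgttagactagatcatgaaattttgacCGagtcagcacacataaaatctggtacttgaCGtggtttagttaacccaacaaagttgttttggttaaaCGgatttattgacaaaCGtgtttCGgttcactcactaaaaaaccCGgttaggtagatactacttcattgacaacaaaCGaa

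The KTF1 window holds 4 CG sites, that of FWA 7, that of AT4G06688 12, and those of AT4G11440 and SYP122 9 each. Over all 9849 tested protein-coding genes the median was 5, and 96.7% of the windows held at least 1. The 65 protein-coding genes that rose by at least 2-fold also had a median of 5, whereas for pseudogenes it was 8 among the 53 that rose against 6 among all 153 tested. The FWA window contains an exact repeat of 38 bases, starting at its positions 140 and 185 (counted from 1 at the 5′ end), each copy with 3 CG sites. A repeat at least that long occurs in 16 of the 9849 windows (0.162%). Methylation was not measured in these libraries, and the letters alone do not show which sites carry the mark.

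FWA encodes a homeodomain transcription factor that is imprinted in endosperm and silenced by methylation of repeats at its start. Its level was 1.02, 0.587, 0.412, 0.442 and 0.564 CPM in wild-type replicates 1 to 5 and 5.45, 7.21, 5.45, 6.75 and 5.48 CPM in sln replicates 1 to 5. Every sln library lay above every wild-type library, of which replicate 1 was the highest, and the log2 change was 3.30 ± 0.25 (SE, adjusted p = 7.87e-19). KTF1 encodes a KOW-domain protein of RNA-directed DNA methylation that binds ARGONAUTE4. It stood at 0.157, 0.336, 0.165, 0.189 and 0.282 CPM in wild-type replicates 1 to 5 and 2.69, 3.64, 4.36, 4.19 and 4.36 CPM in sln replicates 1 to 5, with no overlap of the groups and a log2 change of 4.07 ± 0.56 (SE, adjusted p = 4.01e-11). AT4G06688, annotated as a myosin heavy chain-like protein, was read at 1.1, 1.26, 0.412, 0.505 and 0.705 CPM in wild-type replicates 1 to 5 and 14.8, 14.8, 14.2, 11 and 12.8 CPM in sln replicates 1 to 5. Its log2 change was 4.09 ± 0.26 (SE, adjusted p = 7.13e-22), and it was called in each batch alone.

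Other protein-coding genes with the largest rises were close to silent in wild-type. AT2G11015, a hypothetical protein, had 0 counts in all wild-type libraries and 0.197 to 0.757 CPM in sln, at least 11.9-fold higher than 3 counts over the wild-type group (adjusted p = 1.38e-05). AT3G44265, a beta-galactosidase-like protein, had 2 counts over the wild-type group and 0.853 to 1.66 CPM in sln, higher by 43.7-fold (exact 95% counting interval 11.8 to 365), with adjusted p = 1.62e-10. RR19, a response regulator of the two-component type, was higher by 13.9-fold (exact 95% counting interval 3.57 to 119), from 2 wild-type counts, and AT5G28235, of the Ulp1 protease family, by 11.6-fold (exact 95% counting interval 3.73 to 58.6), from 3. AT3G45820, of unknown function, rose from 0.952 ± 0.437 to 7.11 ± 1.15 CPM (SD, n = 5) with a log2 change of 2.94 ± 0.25 (SE, adjusted p = 1.04e-15). AT4G11440, of the mitochondrial substrate carrier family, changed by 2.95 ± 0.30 (SE, adjusted p = 7.25e-14). The noncoding RNA gene AT2G04885 rose from 0.171 ± 0.0993 to 3.06 ± 0.627 CPM (SD, n = 5; adjusted p = 1.55e-14). In each of these genes the groups did not overlap, and the call held without any 1 of the 10 libraries.

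Transposable elements, given by the identifiers of the tables, ranged widely in their wild-type level. AT5TE47400 was read at 0.0787, 0, 0, 0.0631 and 0 CPM in wild-type replicates 1 to 5 and 3.74, 3.88, 4.58, 3.98 and 5.22 CPM in sln replicates 1 to 5, from 2 wild-type counts in all. The rise was 148-fold (exact 95% counting interval 40.7 to 1227), with adjusted p = 2.79e-21. AT3TE53895 was at 0.157, 0.0839, 0.165, 0.379 and 0.211 CPM in wild-type replicates 1 to 5 and 9.19, 10.2, 11.1, 8.37 and 10.8 CPM in sln replicates 1 to 5, a log2 change of 5.52 ± 0.48 (SE, adjusted p = 7.13e-22). Every sln library of both elements lay above every wild-type library. AT3TE51735 and AT4TE15500 changed by 5.83 ± 0.56 (SE, adjusted p = 4.48e-22) and 5.29 ± 0.83 (SE, adjusted p = 2.85e-15). AT2TE06550 had no wild-type counts and 0.46 to 0.871 CPM in sln, at least 13.5-fold higher (adjusted p = 2.69e-06).

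Other elements rose from higher levels, and of the 80 called higher 15 had a wild-type mean under 0.1 CPM, 26 between 0.1 and 1 CPM and 39 above 1 CPM. The most abundant, AT2TE27820, was at 358, 312, 320.0, 314 and 302 CPM in wild-type replicates 1 to 5 and 628, 633, 604, 679 and 549 CPM in sln replicates 1 to 5. Its groups did not overlap, and it rose by 0.95 ± 0.06 (SE, adjusted p = 6.23e-18). AT3TE60310 rose by 0.93 ± 0.05 (SE, adjusted p = 6.59e-21) from 95.6 ± 6.35 CPM (SD, n = 5), and AT1TE42205, with overlapping groups, by 0.44 ± 0.11 (SE, adjusted p = 0.0089) from 189.6 ± 20.3 CPM (SD, n = 5). Elements that fell were few. AT5TE38720 changed by -1.12 ± 0.15 (SE, adjusted p = 1.59e-07) and AT5TE54680 by -0.83 ± 0.12 (SE, adjusted p = 2.43e-06), both with every sln library below every wild-type library. AT1TE62360 had 1 count over the sln group, and its call was lost without wild-type replicate 5. The values of elements, and of pseudogenes, are uncertain where reads match several copies, and how such reads were handled is not given in the sources used here.

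**Figure D3:**
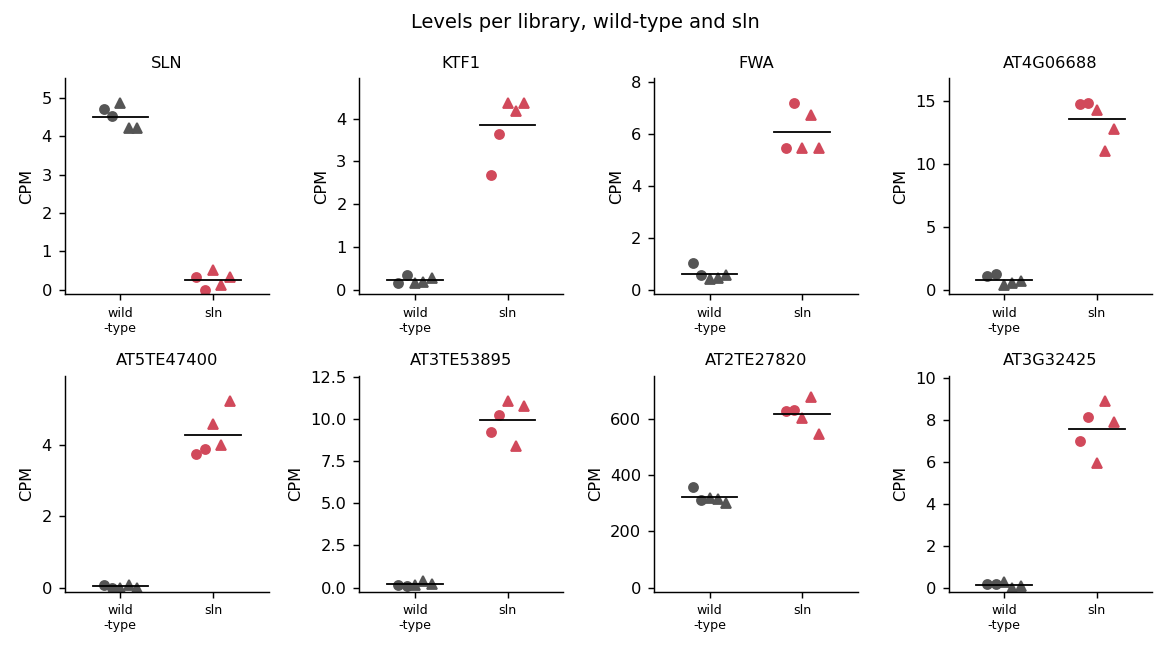
Level in each library (CPM, linear axes, circles batch 1, triangles batch 2, bars the mean of 5) of SLN, 3 protein-coding genes, 3 transposable elements and the pseudogene AT3G32425. SLN is lower in every sln library, and each of the other loci is higher in every sln library than in every wild-type library.

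Pseudogenes with the largest rises were near 0 in wild-type. AT3G32425 stood at 0.157, 0.168, 0.247, 0 and 0.0705 CPM in wild-type replicates 1 to 5 and 7.02, 8.16, 5.96, 8.91 and 7.89 CPM in sln replicates 1 to 5, with a log2 change of 5.89 ± 0.68 (SE, adjusted p = 9.84e-19). AT1G36360 and AT4G04165 changed by 5.66 ± 0.97 (SE, adjusted p = 6.63e-13) and 5.19 ± 0.78 (SE, adjusted p = 1.24e-15). AT2G11820 and AT4G06608 had 0 counts in wild-type and were at least 17.7-fold and 12.2-fold higher in sln (adjusted p = 4.63e-09 and 5.45e-07). The groups of all 5 were apart. The 2 pseudogenes that fell were AT1G43590, with a change of -0.77 ± 0.11 (SE, adjusted p = 1.84e-07), and AT3G13965, with -0.15 ± 0.05 (SE, adjusted p = 0.0284), the latter called in 3 of the 10 fits that each left out 1 library.

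Transcripts of the added annotation held the largest rises of all. The merged locus novel_Chr2_merged_2 had 0 wild-type counts and 4.92, 4.91, 3.78, 4.25 and 5.77 CPM in sln replicates 1 to 5, at least 109-fold higher (adjusted p = 1.32e-18). The coding transcript novel_Chr4_coding_54 had 1 wild-type count and 7.16, 9.19, 8.07, 6.82 and 7.06 CPM in sln. Noncoding transcripts novel_Chr5_noncoding_671, novel_Chr2_noncoding_372 and novel_Chr3_noncoding_833 had none in wild-type and were at least 62.7-fold, 31.5-fold and 30.4-fold higher. On the other side novel_Chr4_noncoding_275 fell by 1.69 ± 0.23 (SE, adjusted p = 4.03e-08) on the log2 scale, with no overlap. Calls of novel_Chr5_noncoding_167 and novel_Chr4_coding_24 as lower rested on wild-type replicate 4, which had 41.6 and 32.1 CPM against at most 10.8 and 11 CPM in the other wild-type libraries, and both were lost without it and without sln replicate 5.

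Among the genes tested, those called higher lay near the centromeres more often than tested genes in general. Within 3 Mb of a centromere lay 20 of the 65 protein-coding genes that rose by at least 2-fold (30.8%), 42 of all 283 that rose (14.8%), 6 of the 141 that fell (4.26%) and 825 of all 9849 tested (8.38%). For pseudogenes the values were 39 of 53 higher (73.6%) and 80 of 153 tested (52.3%). These shares were not tested. A gene silent in wild-type passed the filter only through a genotype in which it was high, so the filter itself favoured a rise among such genes. Silent genes left out near the centromeres were not counted, so the shares cannot show whether position went with the rise. Without sln replicate 5, 132 of the 283 protein-coding genes remained called higher, and the positions of that set were not counted. The genes were spread over the chromosomes, with 2.74% of the tested annotated genes higher on chromosome 5, the lowest share, and 3.88% on chromosome 2, the highest. A direct RefSeq neighbour that also rose was found for 17 of the 346 annotated genes called higher (4.91%) and for 211 of all 10282 tested (2.05%).

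Genes that fell most were, apart from SLN, of low abundance and mixed function. RIF10, the chloroplast polynucleotide phosphorylase that trims RNA, was at 2.83, 3.86, 3.05, 2.46 and 4.86 CPM in wild-type replicates 1 to 5 and 1.25, 0.634, 1.16, 1.35 and 1.12 CPM in sln replicates 1 to 5, with no overlap and a log2 change of -1.60 ± 0.22 (SE, adjusted p = 5.94e-08). AT5G37970, of a family of S-adenosylmethionine-dependent methyltransferases, fell from 5.62 ± 1.07 to 2.12 ± 0.429 CPM (SD, n = 5) by 1.41 ± 0.16 (SE, adjusted p = 1.37e-09) on the log2 scale. AT1G48953, of unknown function, AT1G62760, of the invertase and pectin methylesterase inhibitor family, and the noncoding AT2G07085 changed by -1.68, -1.61 and -1.49. AT5G22355, a C1 domain protein, and PnsL3, a subunit of the chloroplast NDH complex, changed by -2.21 and -2.05. In all 7 every sln library lay below every wild-type library. CYP94B2, a cytochrome P450, changed by -1.24 ± 0.27 (SE, adjusted p = 0.000838) and AT3G47090, a leucine-rich repeat kinase, by -1.81 ± 0.46 (SE, adjusted p = 0.00507). Their groups overlapped, and AT3G47090 was lost without wild-type replicate 4 and without sln replicate 5.

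Abundant genes that passed the test changed by small amounts. PAB5, a poly(A)-binding protein of pollen, and EIL1, a transcription factor of ethylene signalling, changed by 0.16 ± 0.06 (SE, adjusted p = 0.0442) and 0.18 ± 0.05 (SE, adjusted p = 0.00977), the latter without overlap of the groups. AT2G40990, a DHHC-type zinc finger protein, fell from 632 ± 31.7 to 531 ± 41.1 CPM (SD, n = 5; adjusted p = 9.33e-05), with every sln library lower. SPP1, a phosphatase of long-chain base phosphates, AT1G06890, an EamA-like transporter, AT1G10660 and TUA4, an alpha-tubulin, changed by -0.20 to -0.16 on the log2 scale. Their calls, and that of PAB5, were lost in 5 to 9 of the 10 fits that each left out 1 library.

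Lists of genes with known roles were then counted, beside 4.7% of all tested features higher and 1.61% lower. DNA methylation machinery had 0 of 11 tested members called (at an unadjusted p under 0.05, 4; DESeq2 called 0), with a median log2 change of 0.11. KTF1, described above, is not on that list. Other MBD family genes had 0 of 5 called (1 at an unadjusted p under 0.05, DESeq2 0), and the level of MBD6 was 0.842 ± 0.17 CPM in sln beside 0.815 ± 0.147 CPM in wild-type (SD, n = 5; adjusted p = 0.97). Of 4 DNA demethylation genes DML1 (ROS1), a glycosylase that removes methylated cytosine, was called higher by 0.83 ± 0.26 (SE, adjusted p = 0.032), and it was lost without sln replicate 5 and without 4 other libraries. AGO5, an ARGONAUTE protein of post-transcriptional silencing, rose by 0.43 ± 0.11 (SE, adjusted p = 0.0094), 1 of 2 tested on its list, and was lost without sln replicate 5. The list of imprinted and methylation-silenced genes had 3 members tested, of which FWA rose.

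Sperm cell genes had 3 of 17 higher and 1 lower, with a median log2 change of 0.05. DAZ1 and DAZ2, zinc finger factors needed for the division that forms the sperm cells, rose by 0.60 ± 0.12 (SE, adjusted p = 0.000346) and 0.56 ± 0.11 (SE, adjusted p = 0.000106). DAU2 (DMP9), a sperm membrane protein, rose by 0.20 ± 0.04 (SE, adjusted p = 0.000541). The groups of all 3 overlapped, and no member of the list was called in batch 1 alone. GEX1, a gamete nuclear membrane protein, fell from 369 ± 15.9 to 328 ± 31.2 CPM (SD, n = 5; adjusted p = 0.0325) and was called in 3 of the 10 fits that each left out 1 library. The summed level of the list was 1832 CPM in sln replicate 5 and 2093 to 2215 CPM in the other 9 libraries. Over all tested features the sum was also lowest in that library, at 798129 CPM against 932786 to 1076490 CPM. That sum is set by the library's TMM factor alone, so whether the lower level was particular to sperm cell genes was not tested. Members did not all move alike: of the 10 libraries, sln replicate 5 was highest for DAU2 (92.6 CPM) and lowest for GEX1 (277 CPM).

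Vegetative cell and pollen tube genes had 3 of 44 higher and 1 lower, and 34 of the 44 had a log2 change below 0, with a median of -0.10. Over all 12106 tested features 5675 were below 0, with a median of 0.01. The list median was -0.03 in batch 1 alone and -0.12 in batch 2 alone. STP6 and SUC1, which carry hexoses and sucrose into the grain, rose by 0.75 ± 0.17 (SE, adjusted p = 0.00207) and 0.48 ± 0.13 (SE, adjusted p = 0.017). For STP6 the levels were 5.04, 4.61, 7, 6.06 and 7.05 CPM in wild-type replicates 1 to 5 and 5.71, 8.71, 9.81, 9.72 and 14.4 CPM in sln replicates 1 to 5, with the highest in sln replicate 5 and overlapping groups. SUC1 was lost without sln replicate 5, wild-type replicate 3 or wild-type replicate 4, and in batch 1 alone its log2 change was -0.04. MYB97, a transcription factor of the pollen tube, changed by 0.19 ± 0.06 (SE, adjusted p = 0.0167) and AGL65, a MADS-box factor of pollen maturation, by -0.17 ± 0.05 (SE, adjusted p = 0.0127), and each was lost in 3 of the 10 fits that left out 1 library. Without sln replicate 5 the list had 1 member higher and 1 lower and a median of -0.06.

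Heat shock genes had 0 of 14 called in either direction (7 at an unadjusted p under 0.05, DESeq2 0), although the median log2 change was -1.12. Their summed level was 105, 84.9, 79.8, 192 and 72.6 CPM in wild-type replicates 1 to 5 and 64.5, 81.9, 63.2, 89.7 and 75.1 CPM in sln. Wild-type replicate 4 was far above the other libraries, and without it the median was -0.31. Constitutive and endoplasmic reticulum chaperones had 2 of 18 higher and none lower. These were BIP2, an HSP70 of the endoplasmic reticulum, with a change of 0.35 ± 0.11 (SE, adjusted p = 0.0426), and CRT1a, a calreticulin, with 0.52 ± 0.17 (SE, adjusted p = 0.0426). They were called in 5 and 2 of the 10 fits that each left out 1 library, and neither without sln replicate 5. DNA damage response genes had 0 of 7 called (2 at an unadjusted p under 0.05, DESeq2 2 lower).

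Jasmonate and stress regulators had 2 of 4 tested members higher and 1 lower. LOX3, a lipoxygenase of jasmonate synthesis, changed by 1.81 ± 0.54 (SE, adjusted p = 0.0113), RHL41 (ZAT12), a stress-induced zinc finger factor, by 0.50 ± 0.16 (SE, adjusted p = 0.0425), and PR5, a pathogenesis-related protein, by -0.61 ± 0.14 (SE, adjusted p = 0.0029). PR5 alone had groups apart. LOX3 was lost without wild-type replicate 4, and RHL41 without 9 of the 10 libraries in turn. Leaf photosynthesis genes, which would mark carried-over leaf tissue, had 0 of 9 called (2 at an unadjusted p under 0.05, DESeq2 1 lower). Of the 9, 8 had a log2 change above 0, with a list median of 0.56. The list median was -0.29 in batch 1 alone and 1.20 in batch 2 alone, where 2 members were called higher. The summed level of the list was 21.5 to 57.0 CPM in wild-type, highest in replicate 2, and 30.9 to 45.9 CPM in sln. Without wild-type replicate 2 there were also 2 members called higher. No member of the tapetum list or of the list for dehydration and late embryogenesis passed the filter, and their part in the results was not tested.

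**Figure D4:**
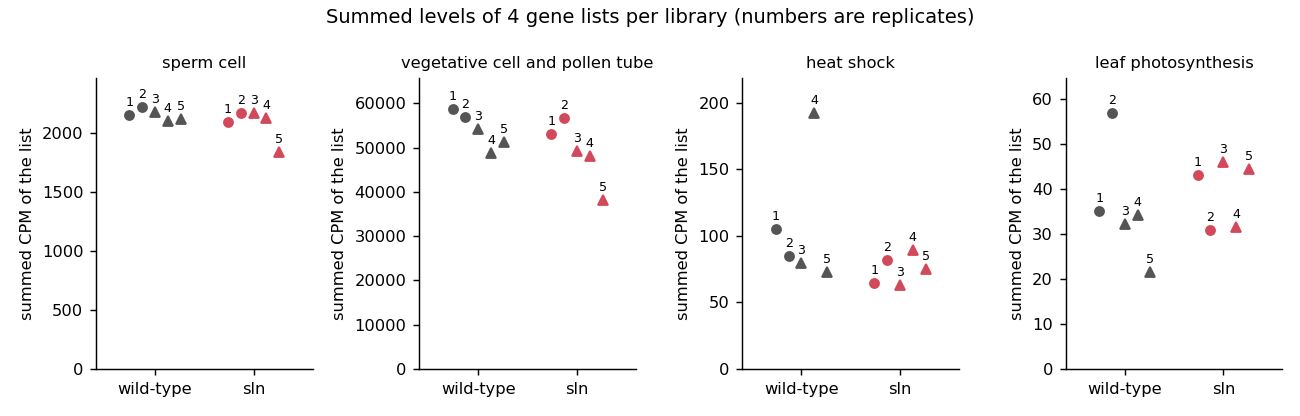
Summed level of all members of 4 gene lists in each library (CPM, axes from 0, circles batch 1, triangles batch 2, replicate numbers above the points). Replicate 5 of sln is the lowest library for the sperm and vegetative lists, and replicate 4 of wild-type is the highest for heat shock genes. The sum over all tested features is not drawn. It is set by the TMM factor alone and was also lowest in sln replicate 5 (798129 CPM against 932786 to 1076490 CPM).

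Pollen lacking SLN was next set directly against pollen lacking the MBD readers, mbd5 mbd6. In sln 155 features were higher (1.28% of those tested) and 249 lower (2.06%). Transposable elements were 7 higher and 30 lower of 258, and added noncoding transcripts 13 higher and 50 lower of 1219. Of the 80 elements that rose in sln against wild-type, 18 were lower in sln than in mbd5 mbd6, 4 were higher and 58 were not called. For the 283 protein-coding genes the same counts were 11 lower, 38 higher and 234 not called. Without sln replicate 5 the counts were 75 higher and 133 lower, and without mbd5 mbd6 replicate 3 or 4 they were 77 and 144 or 94 and 152. Without mbd5 mbd6 replicate 5 there were 95 higher, and without sln replicate 4 there were 155 lower. With only the compared groups in the fit there were 99 higher, in DESeq2 93 higher, and with no batch term 158 lower. A transcript not called here was not shown to be equal in both mutants.

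Some loci were active in mbd5 mbd6 and silent in sln. SYP122, a syntaxin of the plasma membrane, was at 0.0656, 0, 0.218, 0.0675 and 0.144 CPM in sln replicates 1 to 5, overlapping wild-type at 0 to 0.252 CPM. In mbd5 mbd6 it was at 5.74, 6.63, 7.02, 8.42 and 9.1 CPM, and the log2 difference of sln was -6.04 ± 0.56 (SE, adjusted p = 1.05e-23). AT2TE03160 had 0 counts in all wild-type and all sln libraries and 1.68 to 3.09 CPM in mbd5 mbd6, at least 72.6-fold higher than 3 counts over the sln group. The transcripts novel_Chr5_noncoding_366 and novel_Chr2_coding_69, also at 0 counts in sln, were at least 18.4-fold and 15.4-fold higher in mbd5 mbd6. AT5G15360, of unknown function, had 1 count over the sln group and 1.34 to 2.33 CPM in mbd5 mbd6, where it was 154-fold higher (exact 95% counting interval 27.1 to 6125).

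At other loci the rise in sln was partial. AT3TE51735, at 6.43, 9.27, 8.51, 9.59 and 7.53 CPM in sln, stood at 47.5, 47.8, 43.4, 40.4 and 42.6 CPM in mbd5 mbd6, a log2 difference of -2.44 ± 0.09 (SE, adjusted p = 6.37e-26). AT3G45820 differed by -1.17 ± 0.11 (SE, adjusted p = 8.31e-11) and novel_Chr3_noncoding_833 by -2.76 ± 0.17 (SE, adjusted p = 2.37e-18). FWA was 8.55 ± 0.875 CPM in mbd5 mbd6 (SD, n = 5), and sln was lower by 0.49 ± 0.11 (SE, adjusted p = 0.00225) on the log2 scale. For KTF1, AT5TE47400 and AT2TE27820 no difference was called, with log2 differences of 0.19 ± 0.20 (SE, adjusted p = 0.671), -0.25 ± 0.13 (SE, adjusted p = 0.285) and 0.02 ± 0.06 (SE, adjusted p = 0.905).

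Other loci were higher in sln. MBD6 itself and AT5G59390, an XH/XS domain gene close to it on chromosome 5, were higher in sln than in mbd5 mbd6, by 26.5-fold for MBD6 (exact 95% counting interval 7.07 to 223, from 2 counts over the mbd5 mbd6 group) and by a log2 difference of 2.41 ± 0.56 (SE, adjusted p = 0.000447) for AT5G59390. Neither was called in sln against wild-type. AT4G11440 was at 2.43, 2.69, 2.62, 3.44 and 3.75 CPM in sln and 0.957, 0.56, 0.619, 0.89 and 0.441 CPM in mbd5 mbd6, a log2 difference of 2.15 ± 0.24 (SE, adjusted p = 8.73e-11), with every sln library above every mbd5 mbd6 library. The element AT2TE12030 and the transcript novel_Chr5_noncoding_536 were higher in sln by 1.89 ± 0.34 (SE, adjusted p = 8.86e-06) and 1.82 ± 0.27 (SE, adjusted p = 3.32e-07).

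**Figure D5:**
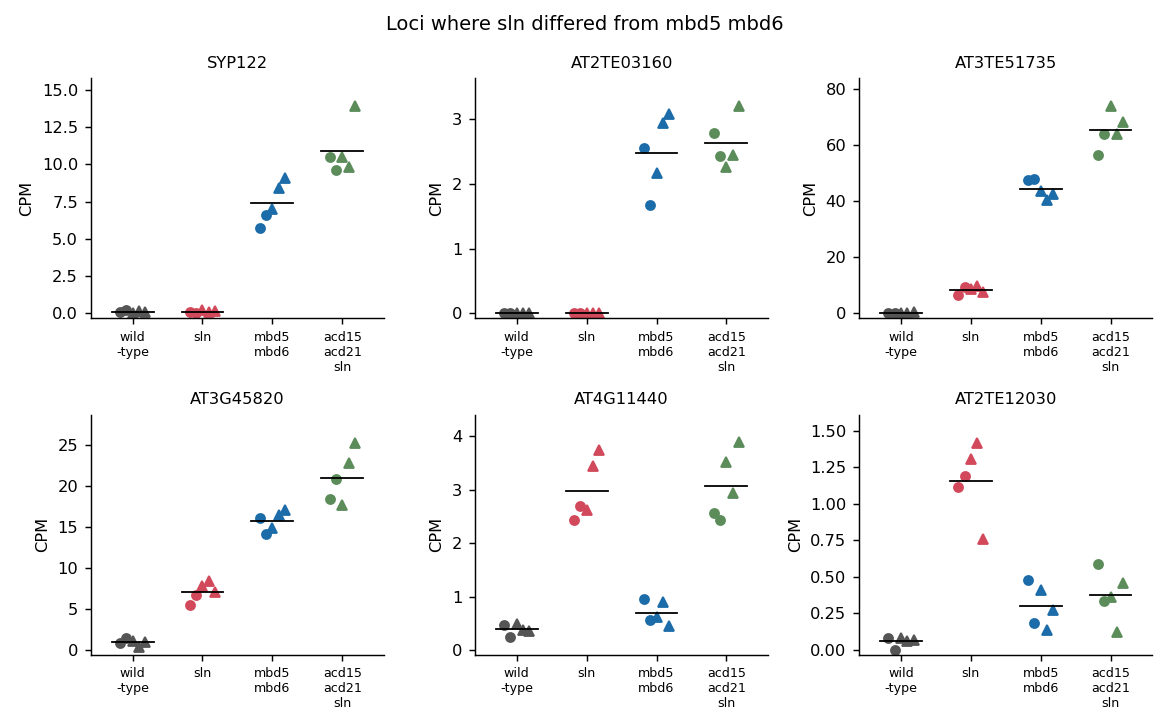
Level in each library (CPM, linear axes, circles batch 1, triangles batch 2, bars the mean of 5) of 6 loci in wild-type, sln, mbd5 mbd6 and acd15 acd21 sln. SYP122 and AT2TE03160 are near 0 in sln and high in the other mutants drawn, AT3TE51735 and AT3G45820 are intermediate in sln, and AT4G11440 and AT2TE12030 are higher in sln than in mbd5 mbd6.

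Removing ACD15 and ACD21 as well as SLN was the last comparison. Against acd15 acd21 sln, 214 features were higher in sln (1.77% of those tested) and 359 lower (2.97%), and without sln replicate 5 there were 71 higher and 125 lower. Counts moved with libraries of the other genotype too: without acd15 acd21 sln replicate 1 there were 453 higher, without its replicate 2 there were 214 lower, and without its replicate 4 there were 125 higher and 178 lower. They moved as far with the method, to 57 higher and 96 lower with only the compared groups in the fit, 136 and 205 with no batch term, and 132 and 666 in DESeq2. Of the 80 elements higher in sln than in wild-type, 18 were lower in sln than in acd15 acd21 sln and 7 higher, and of the 53 pseudogenes 11 were lower and 0 higher. SYP122 was at 10.5, 9.64, 10.5, 9.82 and 13.9 CPM in acd15 acd21 sln, so that the locus near 0 in sln alone was high when ACD15 and ACD21 were lost too, a log2 difference of -6.60 ± 0.56 (SE, adjusted p = 2.71e-27). AT2TE03160 and novel_Chr2_coding_69 were at least 75.3-fold and 48.9-fold higher in acd15 acd21 sln. AT3TE51735 differed by -3.0 ± 0.09 (SE, adjusted p = 3.34e-30) and AT3G45820 by -1.58 ± 0.11 (SE, adjusted p = 2.87e-15), both lower in sln.

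Of the features higher in sln, the 3 with the largest differences from acd15 acd21 sln were at low levels. CNGC13, a cyclic nucleotide-gated channel, averaged 0.281 ± 0.352 CPM in acd15 acd21 sln, where sln libraries averaged 1.04 ± 0.471 CPM and wild-type libraries 1.12 ± 0.218 CPM (SD, n = 5), and the log2 difference of sln from acd15 acd21 sln was 1.85 ± 0.59 (SE, adjusted p = 0.0317). The transcripts novel_Chr2_coding_73 and novel_Chr2_noncoding_283 differed by 1.86 ± 0.59 (SE, adjusted p = 0.0288) and 1.75 ± 0.60 (SE, adjusted p = 0.0407). None of these 3 was called in sln against wild-type. Both comparisons with other mutants, and that with wild-type, use the same sln libraries, so their values are given side by side and are not independent of each other.

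Both batches were also fitted alone. In batch 1 alone, with 2 libraries per genotype, 192 features were higher and 18 lower, and in batch 2 alone, with 3, there were 466 higher and 109 lower. Of the 80 elements, 45 were called higher in batch 1 alone and 61 in batch 2 alone. FWA changed by 2.93 in batch 1 and 3.59 in batch 2 on the log2 scale, and AT2TE27820 by 0.92 and 0.96. A test of whether the sln effect differed between the batches called 0 of 12106 features (0%) in edgeR, with 873 at an unadjusted p under 0.05. No other tool was run on this term.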

How the data were processed

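Poly(A) RNA of mature pollen was sequenced from libraries of the TruSeq Stranded mRNA protocol after harvest in Galbraith buffer, per the labels' protocols. Read counts of 66429 features, as whole numbers, are what the authors deposited per library, and they were used unchanged. The TAIR10 build and the tools STAR, HTSeq, Trim Galore and deepTools are named per the submitters' processing notes. Not given in the sources used here are versions, strand setting, the handling of reads with several alignments and the origin of the added transcripts, so overlapping genes and repeated copies are uncertain. HTSeq's 5 summary lines stayed out of all totals, and reads in no feature were 0.506 to 0.944% in the 10 libraries compared. Gene names and positions came from RefSeq's TAIR10.1 annotation (34395 of 34490 nuclear genes matched), which was also read for the promoter letters. Positions of transposable elements and added transcripts were not used here.

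One edgeR 4.0.16 fit (R 4.3.3, quasi-likelihood with the option legacy = FALSE, robust, TMM scaling) held all 35 libraries, with terms for genotype and batch. All genotypes share 1 estimate of the spread. The filter filterByExpr (minimum count 10, minimum total 15) left 12106 features. Calls need a Benjamini-Hochberg adjusted p under 0.05. Errors of log2 changes are standard errors of that fit, and errors of levels are standard deviations over libraries. Where a group had 0 counts, "at least" compares with 3 counts over the group. Where a fold is printed for a group with 1 to 3 counts, an exact 95% counting interval is given with it. Both cover counting error only. The step was tested on simulated counts with known changes.

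Features named in the text were those picked by a rule: SLN, the 10 called genes with the largest change in each direction, the 5 highest and 3 lowest transposable elements, pseudogenes and added transcripts (merged loci included), the 5 most abundant called features in each direction, the 5 and 3 largest differences in each direction from mbd5 mbd6 and acd15 acd21 sln, and up to 4 called members of each gene list. The gene lists and the comparisons were chosen with earlier results of these data known. No list was given a set test. Alternatives were DESeq2 1.42.0, RLE scaling, no filter, smaller fits, other batch terms, single libraries left out, a thinned sln replicate 5 and a covariate, and, chosen after seeing the data, edgeR's earlier quasi-likelihood method. GEX2, AGL104, ROP1 and HSP18.2, which the gene lists also name, were not analysed here.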

Additional observations from a re-analysis of the deposited data

Results flagged for a closer look

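In groups of 5 libraries a value was marked when the gap to its neighbour exceeded 0.71 of the group's range (Dixon's test), which chance does in about 1 in 20 groups. Of 154 groups looked at, 17 were marked. Their values follow, with no cause tested.

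In wild-type, replicate 4 stood apart for the summed level of heat shock genes (192 CPM against 72.6 to 104.8 CPM in the others), for novel_Chr5_noncoding_167 (41.6 CPM against 7.13 to 10.8) and for novel_Chr4_coding_24 (32.1 CPM against 6.21 to 11). Replicate 2 was highest for jasmonate and stress regulators (15.4 CPM against 9.89 to 11.4). Replicate 1 was highest for FWA (1.02 CPM against 0.412 to 0.587) and lowest for AGO5 (4.41 CPM against 5.79 to 6.20). Replicate 5 was lowest for EIL1 (175 CPM against 191 to 196) and for GEX1 (341 CPM against 372 to 382).

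In sln, replicate 5 stood apart for its total count (22208090 against 13167806 to 15272287), for the summed sperm cell genes (1832 CPM against 2093 to 2168) and DNA damage response genes (275 CPM against 308 to 314), and for AT2G11820 (1.04 CPM against 0.634 to 0.722) and BIP2 (9.37 CPM against 6.83 to 7.29). Its sum over all tested features was low too, at 798129 CPM against 932786 to 1050340 CPM in the other sln libraries. That sum is set by the library's TMM factor alone, and whether the 2 low list sums go with that scaling was not tested. Replicate 2 was highest for AT3G47090 (1.03 CPM against 0.270 to 0.460) and AT4G04165 (2.93 CPM against 2.36 to 2.47). Replicate 3 was highest for novel_Chr5_noncoding_536 (1.96 CPM against 1.82 to 1.84), and replicate 4 was lowest for AGL65 (102 CPM against 115 to 118).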

How the results depend on the processing

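Of the 70 named features called against wild-type, 35 kept direction and call under every alternative that gave a value, and all but 1 kept their direction. The exception was SUC1, at -0.038 on the log2 scale in batch 1 alone. With single libraries left out, features higher numbered 400 to 651, features lower 90 to 256, those at least 2-fold higher 251 to 321, those at least 2-fold lower 18 to 43, transposable elements higher 75 to 82 and lower 6 to 10. Features higher or lower than in mbd5 mbd6 then numbered 75 to 225 and 133 to 336, and than in acd15 acd21 sln 71 to 453 and 125 to 537. In batch 1 alone there were 192 features higher, 18 lower, 155 at least 2-fold higher, 7 at least 2-fold lower, 45 transposable elements higher and 2 lower. Against mbd5 mbd6 batch 1 gave 16 higher and 38 lower, and against acd15 acd21 sln 10 and 41. Batch 2 alone gave 109 features lower, and no filter gave 58 at least 2-fold lower. With only the compared groups in the fit, 99 were higher than in mbd5 mbd6, and 57 were higher and 96 lower than in acd15 acd21 sln. Without a batch term 158 were lower than in mbd5 mbd6, and 136 were higher and 205 lower than in acd15 acd21 sln. DESeq2 gave 93 higher than in mbd5 mbd6, and 132 higher and 666 lower than in acd15 acd21 sln. A covariate for unassigned reads gave 225 lower than in acd15 acd21 sln. The test of the batch difference called 15 features with no filter. For these the cause was not tested, except that single batches and left-out libraries hold fewer samples.

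DESeq2 gave 422 higher and 258 lower against wild-type, and RLE scaling 524 and 260. The earlier quasi-likelihood method of edgeR, chosen after seeing the data, gave 514 and 170, and thinning sln replicate 5 to the median wild-type total gave 523 and 166. Whether replicate numbers pair the libraries was not decided. Deviations of same-numbered sln and wild-type libraries from their batch means correlated at -0.054, -0.054, -0.018, 0.106 and 0.239. With 2 libraries per genotype in batch 1, the values of its replicates are equal by construction, and libraries of different numbers were not compared. The replicate block in place of batch gave 659 higher and 263 lower. At these depths a feature with no wild-type count is bounded only by 3 counts over the group.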
